A study of Homo sapiens with 3 samples.

Results

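Immediate early genes are the first genes that cells transcribe after a growth factor, stress or cytokine signal, and their transcription is rapid, transient and needs no new protein synthesis. The signal reaches many of them through the ERK pathway, which activates ternary complexes of serum response factor (SRF) and ETS-domain cofactors such as ELK1 on DNA elements named CArG boxes, while other members respond to CREB through cyclic AMP response elements (CRE). Many of the products are short-lived regulators that either pass the signal on as transcription factors or end it, as MAP kinase phosphatases and mRNA decay factors do.

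A named list of 10 such response genes was followed through ChIP-seq peak lists of HuCCT1 cells, a human cell line derived from bile duct cancer (cholangiocarcinoma). The list held the transcription factors EGR1 and EGR3, the immediate early response genes IER2, IER3 and IER5, the phosphatases DUSP1 and DUSP5, the mRNA decay factors ZFP36 and ZFP36L1, and PHLDA1, out of 19689 protein-coding genes annotated in GENCODE 44. All 10 were found in the annotation. The study asked where Strawberry Notch 1 (SBNO1) sits on chromatin compared with TAF4, one of the proteins that build TFIID, the complex that recognizes core promoters. There was 1 library with an antibody against SBNO1, 1 against TAF4 and 1 with control immunoglobulin G (IgG), all from the same line, and the labels give no treatment. According to the methods of the study, each library pooled immunoprecipitates of several cultures, so no replicate error could be assessed and no test was made.

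A peak is a genomic interval in which the authors' software found more reads than its model of the background allowed. The SBNO1 list held 16147 peaks, the TAF4 list 12763 and the IgG list 1598. Each peak carries a score, a whole number with a cap of 1000 whose scaling was not stated, and no read numbers, so the depth behind the values is unknown. Distances to a transcription start site (TSS) were measured along the gene on GRCh38, with the TSS at 0 and negative values upstream. A promoter peak lies with its nearest edge within 1 kb of a protein-coding TSS of the gene.

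Both proteins had promoter peaks at 9 of the 10 genes, and EGR3 was the exception in both lists. Among all protein-coding genes, 25.7% had an SBNO1 promoter peak and 31.9% had a TAF4 promoter peak. The paper reports far fewer bound promoters for both proteins and a larger share of peaks near a TSS. All counts given here therefore describe the deposited lists and not the calls in the paper. The reason for the difference was not tested. At each of the 9 genes an SBNO1 promoter peak overlapped a TAF4 peak, which held for 22.3% of all genes. The IgG control gave promoter peaks at DUSP1 and ZFP36L1, that is at 2 of 10, compared with 1.41% of all genes. Peaks that covered a TSS were present at 8 genes for SBNO1, at 9 for TAF4 and at 2 for IgG, beside 21.7%, 28.8% and 0.980% of all genes. The gene that had a promoter peak of SBNO1 but none on its TSS was EGR1. These genes are short, with a median annotated length of 4351 bp against 27330 bp for all genes. Among the 6418 genes no longer than DUSP5, the longest of the 10, promoter peaks were present at 20.2% for SBNO1, 25.0% for TAF4 and 1.09% for IgG.

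**Figure D1:**
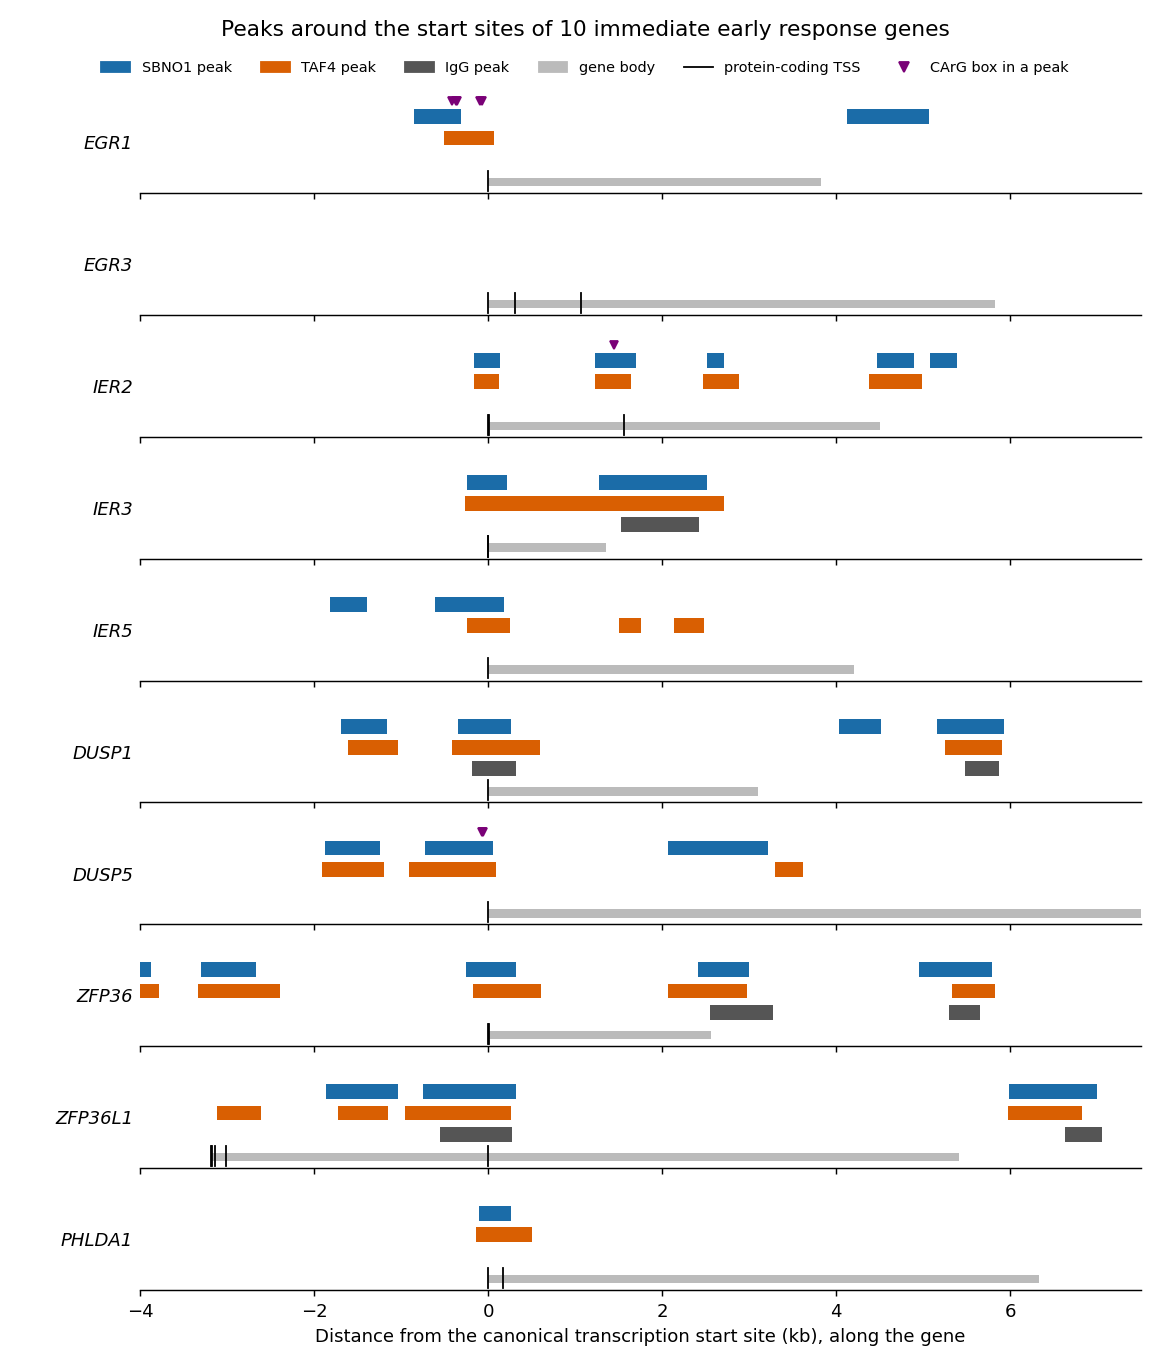
Peaks of SBNO1, TAF4 and IgG (coloured bars, 1 library each) around the canonical start site of each gene, drawn to scale with the distance from that site in kb along the gene on the horizontal axis. Grey bars are gene bodies, black lines protein-coding start sites and triangles CArG boxes inside peaks. At 9 genes, SBNO1 and TAF4 bars lie within 1 kb of a start site, and EGR3 has none in the drawn range. The SBNO1 bar of EGR1 ends before its start site.

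EGR1 encodes a zinc finger transcription factor and is the textbook target of SRF and ELK1. Its SBNO1 peak (chr5:138464622-138465168, 547 bp, score 469) ran from -857 to -311 and therefore ended 311 bp upstream of the TSS at 138465479 on the plus strand. The TAF4 peak (chr5:138464971-138465543, 573 bp, score 745) ran from -508 to 64 and covered the TSS. Both peaks thus met upstream of the start site, and their common stretch of 198 bp was 36.2% of the SBNO1 peak, the lowest such share among the SBNO1 promoter peaks of the 10 genes, for which the others ranged from 53.7% to 100%. No IgG peak lay within 50 kb of EGR1. The common stretch is shown because it holds 3 CArG boxes, with ETS motifs among them (CCGGAA on either strand). A second pair of CArG boxes nearer to the TSS was covered by the TAF4 peak alone. The upstream stretch is chr5:138465040-138465166 (-439 to -313) and the second is chr5:138465362-138465417 (-117 to -62), both on the plus strand, with CArG boxes and ETS motifs in capitals.
EGR1 upstream CArG cluster, SBNO1 and TAF4: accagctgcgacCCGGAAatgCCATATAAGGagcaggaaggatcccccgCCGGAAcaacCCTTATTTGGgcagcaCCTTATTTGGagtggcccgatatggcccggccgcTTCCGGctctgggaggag
EGR1 proximal CArG pair, TAF4: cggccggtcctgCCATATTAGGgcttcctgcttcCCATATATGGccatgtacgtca

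CArG boxes were uncommon in promoters as a whole. In windows from 250 bp before to 50 bp after the canonical TSS, an exact match on either strand was present in 1.21% of 19689 genes and in 1.11% of the 5057 genes with an SBNO1 promoter peak. Of the 10 genes, EGR1, EGR3 and DUSP5 held one. Counted in whole peaks, 3 of the 11 SBNO1 promoter peaks of the 10 genes contained a CArG box, those of EGR1, DUSP5 and IER2, compared with 2.55% of all 4791 SBNO1 promoter peaks. The former had a median width of 547 bp and the latter of 420 bp, and a wider peak can hold more matches to any motif.

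The phosphatase genes showed broad promoter peaks of both proteins. DUSP5 encodes a nuclear phosphatase that inactivates ERK. Its SBNO1 peak (chr10:110497183-110497960, 778 bp, score 677) lay wholly inside the TAF4 peak (chr10:110496998-110497996, 999 bp, score at the cap of 1000), and both covered the TSS at 110497907. Under both peaks lay an EGR motif (GCGGGGGCG or GCGTGGGCG on either strand) at -139 and a tandem of CArG boxes without a base between them, at -80 and -70. No IgG peak was found within 50 kb of DUSP5. DUSP1 encodes a phosphatase that inactivates p38, JNK and ERK. Its SBNO1 peak (chr5:172770938-172771546, 609 bp, score 999) was likewise contained in the TAF4 peak (chr5:172770598-172771613, 1016 bp, score 1000), but 449 bp of it also overlapped an IgG peak (514 bp, score 392). Below all 3 peaks lay a CRE (TGACGTCA) at -125 and a TATA motif (TATAAA) at -30. The stretches are chr10:110497756-110497858 (plus strand, with the EGR motif and both CArG boxes in capitals) and chr5:172771208-172771332 (minus strand, with CRE and TATA in capitals).
DUSP5 promoter, SBNO1 and TAF4: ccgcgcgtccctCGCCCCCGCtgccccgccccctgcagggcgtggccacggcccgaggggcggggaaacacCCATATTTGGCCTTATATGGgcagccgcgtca
DUSP1 promoter, SBNO1, TAF4 and IgG: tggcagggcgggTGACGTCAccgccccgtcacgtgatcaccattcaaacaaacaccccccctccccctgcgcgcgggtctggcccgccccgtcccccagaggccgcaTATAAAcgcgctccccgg

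ZFP36L1 resembled DUSP1 in its motifs and in its IgG peak. ZFP36 (tristetraprolin) and ZFP36L1 bind AU-rich elements of mRNA and promote their decay. At ZFP36L1 the SBNO1 peak (chr14:68792750-68793820, 1071 bp, score 1000) was wider than or as wide as 98.5% of all SBNO1 promoter peaks and shared 1020 bp with a TAF4 peak of 1225 bp (score 1000). An IgG peak of 830 bp lay at the same place. Its score of 301 was the lowest of the 231 IgG promoter peaks. A CRE at -401 and overlapping TATA matches at -31 and -29 lay below all 3 peaks. The gene has further start sites about 3 kb upstream, where TAF4 had a second peak (chr14:68795676-68796185, 510 bp, score 869) and SBNO1 had none, so that the lists differed at this alternative promoter. Between both promoters, 1035 bp from the nearest TSS and hence just outside the promoter definition, lay an SBNO1 peak of 838 bp that overlapped a TAF4 peak of 585 bp. The CRE and TATA sites of ZFP36L1 are given on the minus strand, from chr14:68793450-68793479 and chr14:68793080-68793109, with the motifs in capitals.
ZFP36L1 CRE: agtggaatgagTGACGTCAcagccgcgctc
ZFP36L1 TATA: caaatctgaacTTTATAAAttgggctttgc

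At ZFP36 itself the peaks were wider than the median promoter peak and low in score. The SBNO1 peak (chr19:39406594-39407167, 574 bp) had a score of 438, the lowest of the 11, and the TAF4 peak (chr19:39406674-39407456, 783 bp) had a score of 610, the lowest of the 12 TAF4 promoter peaks. They shared 494 bp across the TSS at 39406847, and no IgG peak overlapped them. The promoter held matches to the KLF/SP core GGGCGG, but no CArG box, ETS motif, CRE or TATA motif from 500 bp before to 100 bp after the TSS.

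IER2 encodes a small, rapidly induced nuclear protein, and it was the gene with the most promoter peaks, 3 in each list and none for IgG. The first pair (SBNO1 chr19:13150247-13150550, 304 bp, score 748; TAF4 282 bp, score 797) covered the TSS at 13150411, and a TSS of STX10, a gene of vesicle transport, lay nearest to the center of the TAF4 peak. The second pair (SBNO1 chr19:13151641-13152105, 465 bp, score 590; TAF4 413 bp, score 1000) covered the internal TSS at 13151975. The third pair (SBNO1 chr19:13152921-13153125, 205 bp, score 1000; TAF4 415 bp, score 1000) was 946 bp from that TSS for SBNO1 and 907 bp for TAF4, in an untranslated exon. Its SBNO1 peak was the narrowest of the 11 and at the score cap. The motifs differed between the 3 sites: the first peak held an ETS motif, the second a CArG box with ETS motifs on either side, and the third a CRE next to a TATA motif. The second stretch is chr19:13151798-13151885 and the third chr19:13153004-13153032, both on the plus strand, with these motifs in capitals.
IER2 second site, CArG and ETS: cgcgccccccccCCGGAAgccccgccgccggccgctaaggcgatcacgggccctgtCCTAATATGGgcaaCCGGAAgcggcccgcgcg
IER2 last site, CRE and TATA: tcagTGACGTCActgggggTATAAAaggg

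IER3 is known as a modulator of apoptosis and of ERK signaling. A single TAF4 peak of 2981 bp (chr6:30741834-30744814, score 736), the widest of all 6042 TAF4 promoter peaks, spanned the whole gene, which is 1350 bp long, together with the promoter of the neighboring FLOT1, a gene for a membrane scaffold protein. SBNO1 instead had separate peaks, one of 455 bp on the IER3 TSS (chr6:30744334-30744788, score 582) and one of 1245 bp over the end of IER3 and the FLOT1 promoter (chr6:30742028-30743272, score 605). An IgG peak of 897 bp, with a score at the cap of 1000, lay within the latter and not on the IER3 TSS. Overlap of the TAF4 peak with IgG therefore came from the FLOT1 side. The SBNO1 peak on the IER3 TSS held a KLF/SP and an overlapping CCAAT (NFY) motif at -51 and -47.

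IER5, known as a regulator of the heat shock factor HSF1, and PHLDA1, which encodes a pleckstrin homology-like domain protein linked to apoptosis, had promoter peaks with ETS motifs and without CArG boxes. The SBNO1 peak of IER5 (chr1:181088083-181088881, 799 bp, score 773) ran from -617 to 181 and reached further upstream than the TAF4 peak (494 bp, -247 to 246, score 1000). Of the ETS motifs at -293 and -74, the first was covered by SBNO1 and the second by both. Within the IER5 gene, TAF4 had another 2 peaks of 255 bp and 348 bp in an untranslated exon, and SBNO1 had none there. At PHLDA1 the SBNO1 peak (chr12:76031516-76031889, 374 bp, score 841) was contained in the TAF4 peak (642 bp, score 1000) and held an ETS motif at -89. No IgG peak overlapped the promoter peaks of either gene. The ETS sites are chr1:181088395-181088424, chr1:181088614-181088643 (both plus strand) and chr12:76031848-76031877 (minus strand).
IER5 ETS, SBNO1: tgttcgctttggTTCCGGcaagccatcgca
IER5 ETS, SBNO1 and TAF4: cgccggccagccCCGGAAcggttggcggcc
PHLDA1 ETS, SBNO1 and TAF4: gaggagaggagtTTCCGGggctcgggtccg

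The promoter peaks of the 10 genes tended to be wide and, for SBNO1, not to score highly. The 11 SBNO1 peaks were 205 to 1071 bp wide with a median of 547 bp, compared with 420 bp for all SBNO1 promoter peaks. For the 12 TAF4 peaks the range was 282 to 2981 bp and the median 608 bp, compared with 418 bp. Scores of the SBNO1 peaks ranged from 438 to 1000 with a median of 748, below the median of 850 for all SBNO1 promoter peaks, and 2 of 11 reached the cap, against 32.2% of all. Of the TAF4 peaks, 7 of 12 reached the cap, against 50.1% of all. Wider promoter peaks scored lower in the deposited SBNO1 list, in which those at the cap had a median width of 335 bp and those below it 452 bp. When peaks with a score below the list median were left out, SBNO1 promoter peaks remained at 3 of the 10 genes (IER2, DUSP1 and ZFP36L1) and at 2589 of all genes, and TAF4 promoter peaks at 6 and 3866.

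**Figure D2:**
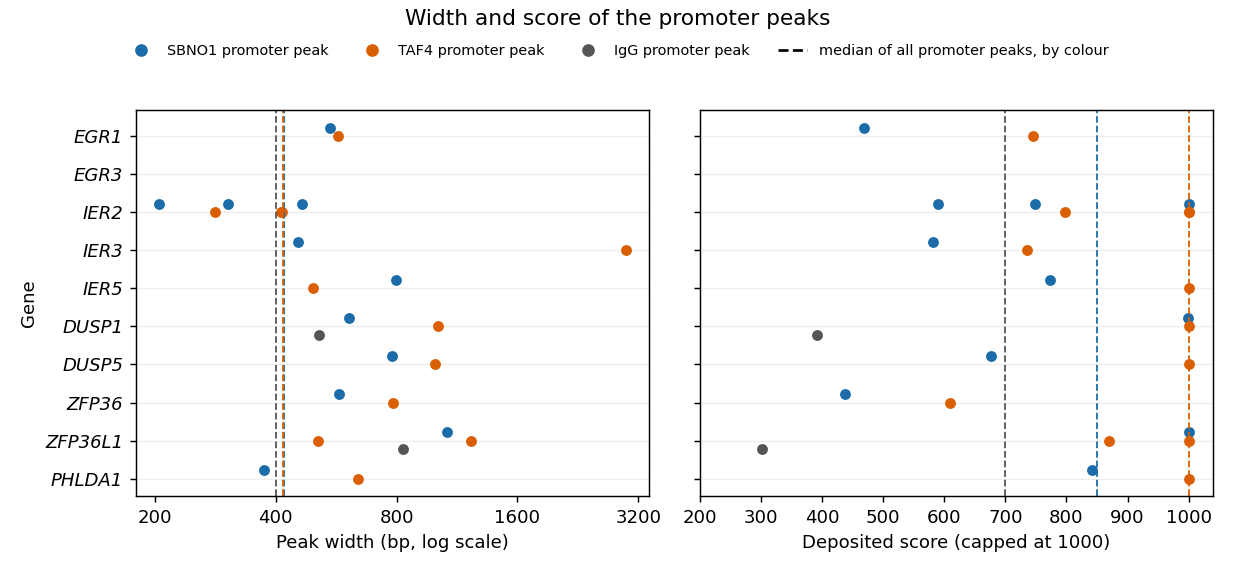
Width in bp on a log axis (left) and deposited score (right) of each promoter peak, with 1 point per peak, genes on the vertical axis and dashed lines at the median of all promoter peaks of the same library. The widest point is the TAF4 peak of IER3 at 2981 bp, and most SBNO1 points lie right of the dashed line for width and left of it for score.

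The centers of both proteins' peaks lay further apart than at the median promoter. The distance between the centers of overlapping SBNO1 and TAF4 promoter peaks had a median of 128 bp over the 11 pairs of the 10 genes and of 57 bp over 4965 pairs of all genes. Centers of wider overlapping peaks can lie further apart, and the promoter peaks of the 10 genes were wider in both lists. The part of width in this distance was not tested. Counted as SBNO1 minus TAF4 along the gene, the offset was -1237 bp at IER3, where the TAF4 peak spans 2 promoters, -362 bp at EGR1 and -218 bp at IER5, negative values meaning that SBNO1 lay further upstream. At the other 6 genes with promoter peaks it ranged from -184 bp at ZFP36 to 128 bp at ZFP36L1. With 1 library per antibody, it is not known how far such edges vary between repeated experiments.

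Motifs under the SBNO1 promoter peaks were counted next, as exact matches on both strands. All 11 peaks held the KLF/SP core GGGCGG, compared with 71.3% of all SBNO1 promoter peaks. ETS motifs were present in 6 (40.5% of all), CRE in 3 (230 of all 4791), TATA in 3 (9.29%), CCAAT in 3 (49.9%) and EGR motifs in 2 (8.43%). AP-1 motifs (TGACTCA or TGAGTCA), the sites of FOS and JUN, were present in none of the 11, compared with 12.1% of all, and the same held for NF-kB motifs, compared with 9.73%. A KLF/SP core can overlap an EGR or CCAAT match. These matches describe the letters under the peaks and do not show which factor was bound.

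EGR3, the related zinc finger factor, stood apart from the others. The gene lies on the minus strand of chromosome 8 from 22687659 to 22693480 and has 3 start sites, and no peak of any library lay within 1 kb of these sites or in the gene body. Its promoter window held a CArG box at -71, as that of EGR1 did, but the nearest SBNO1 peak was 18839 bp from a TSS and the nearest TAF4 peak 18779 bp. The SBNO1 list had 3 peaks within 50 kb, of 217 to 280 bp and all at the score cap, at 42.4 kb, 20.0 kb and -22.4 kb from the TSS. The TAF4 list had 2 (score 507 and 883), which overlapped the latter 2 SBNO1 peaks, and IgG had none. Absence from a peak list does not exclude binding below the threshold of the peak caller.

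Next, the peaks around the genes were counted, in a window made of the gene and 50 kb on either side. SBNO1 peaks numbered 70 over the 10 genes, with a median of 6 per gene compared with 1 for all genes. DUSP1 had 14, IER3 and ZFP36 had 10, IER2 had 9, IER5, DUSP5 and ZFP36L1 had 6, PHLDA1 had 4, EGR3 had 3 and EGR1 had 2. TAF4 peaks numbered 64 with a median of 7.5 compared with 1, from 11 at DUSP1 to 1 at EGR1. The 9 IgG peaks were spread over IER3, DUSP1, ZFP36 and ZFP36L1 with 2 each and IER5 with 1. Their median was 0.5 per gene compared with 0 for all genes. Among all genes, 6.76% had 1 or more IgG peaks in the window and 1.28% had 2 or more. The control list was thus also denser around these genes than around most genes. The order of the genes was thus similar for SBNO1 and TAF4, with DUSP1 at the top and EGR1, EGR3 and PHLDA1 at the bottom. All 9 IgG peaks overlapped a peak of both proteins, and 9 of the 70 SBNO1 peaks overlapped IgG.

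**Figure D3:**
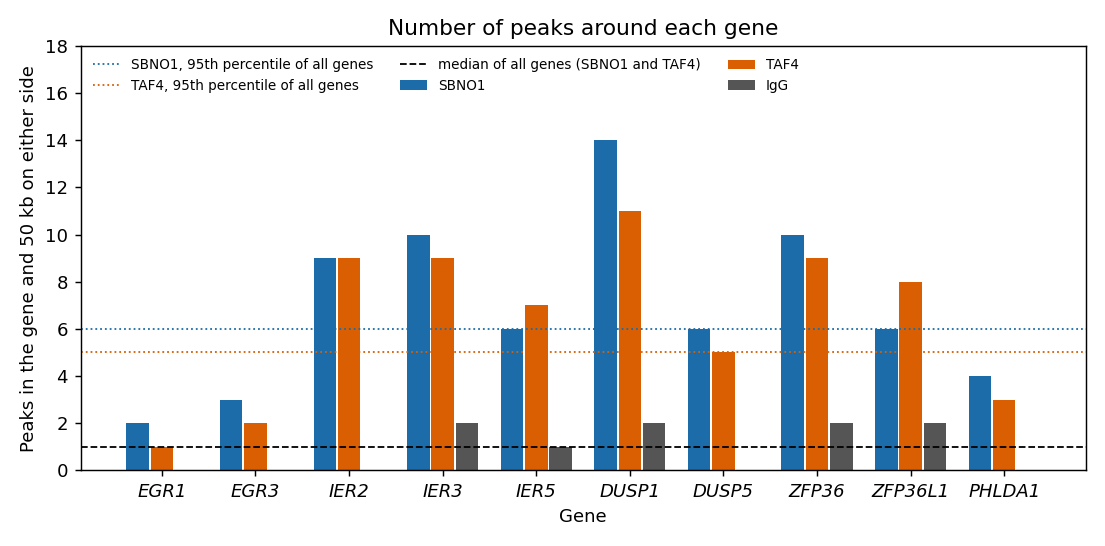
Number of SBNO1, TAF4 and IgG peaks (bars, 1 library each) in each gene and 50 kb on either side, with the median of all protein-coding genes (dashed, 1 for SBNO1 and TAF4) and their 95th percentiles (dotted, 6 for SBNO1 and 5 for TAF4). DUSP1 has the tallest bars with 14 and 11 peaks, while EGR1, EGR3 and PHLDA1 lie below both dotted lines.

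The cluster at DUSP1 was reached by few genes. As many SBNO1 peaks were found around 0.152% of all genes and as many TAF4 peaks around 0.422%. The 2 IgG peaks at DUSP1 were matched or exceeded around 1.28% of all genes. No other protein-coding gene had a TSS in the DUSP1 window. Several of the peaks were centered in noncoding genes, whose start sites were not examined. Chromosome 5 held 7.86 SBNO1 peaks per Mb and the genome 5.23, and genes on chromosome 5 had a median of 2 SBNO1 peaks per window, the value found at EGR1 on the same chromosome. The part of this density in the count at DUSP1 was not tested. By contrast, the windows of IER2, IER3 and ZFP36 held 4, 3 and 6 other genes, and part of their peaks were promoter peaks of these neighbors. Over the 10 windows, 11 SBNO1 peaks lay at promoters of the genes themselves, 5 elsewhere in their bodies, 8 at promoters of other genes and 46 further away. The peak over the end of IER3 and the FLOT1 promoter was counted among those in the bodies.

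**Figure D4:**
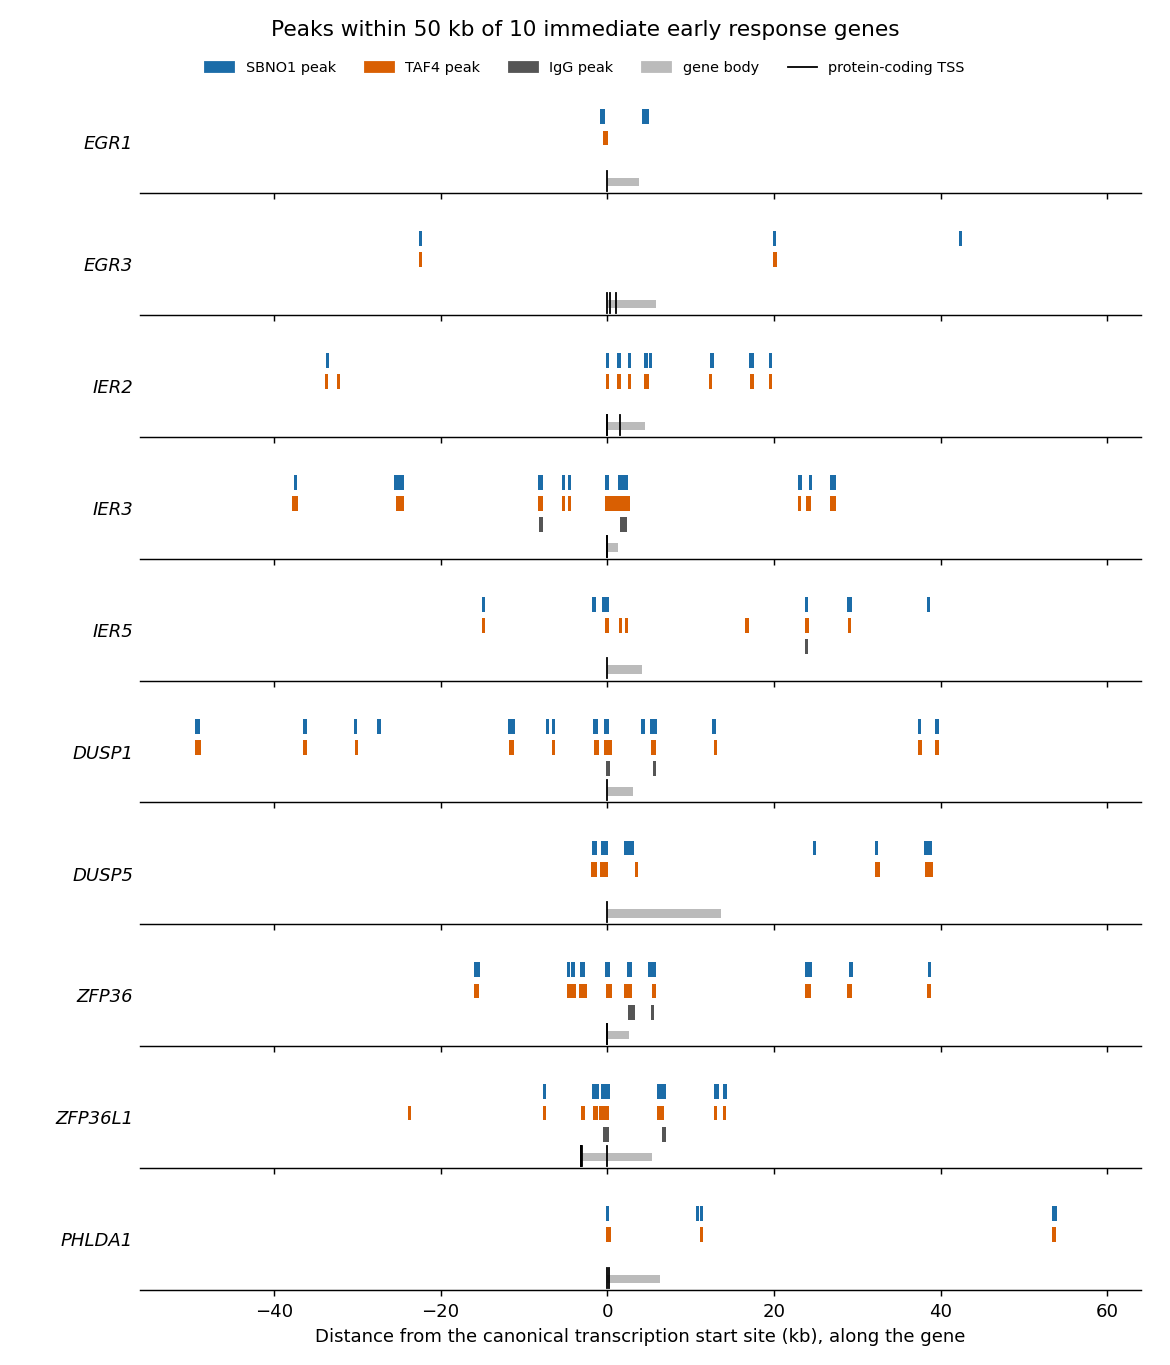
Position of each SBNO1, TAF4 and IgG peak within 50 kb of the genes, with the distance from the canonical start site in kb along the gene on the horizontal axis; bars narrower than the line are drawn at a minimum width. Peaks surround DUSP1, IER3 and ZFP36 on both sides, whereas the neighborhood of EGR1 holds 2 SBNO1 peaks and 1 TAF4 peak.

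Peaks over 1 kb from every protein-coding TSS were present around all 10 genes for SBNO1, around 9 for TAF4 (all but EGR1) and around 5 for IgG, compared with 37.8%, 26.8% and 3.39% of all genes. Of the 50 SBNO1 peaks of this kind, 39 (78.0%) overlapped a TAF4 peak, compared with 49.5% of the 11356 such peaks in the genome. Conversely, 38 of 43 TAF4 peaks (88.4%) overlapped SBNO1, compared with 83.2%. An IgG peak overlapped 5 of the 50, compared with 10.1%. Several of their motif shares differed from those at the promoters. AP-1 motifs, absent from the promoter peaks, were present in 19 of the 50 (38.0%), compared with 49.4% of all SBNO1 peaks over 1 kb from a TSS. NF-kB motifs were present in 11 (22.0%, compared with 7.98%), CRE in 3 (compared with 0.863%) and CArG boxes in none (compared with 2.65%). The median width was 439 bp and that of all such peaks 388 bp.

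The widest SBNO1 peak of this kind at each gene, chosen by that rule, ranged from 280 bp at EGR3 to 1214 bp at IER3. The IER3 peak (chr6:30768955-30770168, score 1000) lay 25.0 kb upstream in the noncoding gene HCG20, shared 918 bp with TAF4 and none with IgG, and contained an AP-1 and an NF-kB motif. At ZFP36L1 a peak of 1015 bp (chr14:68786072-68787086, score 820) beyond the gene end contained 2 AP-1 motifs and an NF-kB motif, and 366 bp of it overlapped IgG. At DUSP1 a peak of 810 bp at -11.4 kb (chr5:172782231-172783040, score 430) held an AP-1 motif, was shared with TAF4 over 618 bp and was free of IgG. At DUSP5 a peak of 1149 bp in the intron (chr10:110499970-110501118, score 357) overlapped neither TAF4 nor IgG, and a separate TAF4 peak of 323 bp lay downstream of it. At IER2 (594 bp, 17.4 kb downstream), IER5 (601 bp, 29.0 kb downstream) and PHLDA1 (513 bp, 53.7 kb downstream) the peak overlapped TAF4 and not IgG. The widest at ZFP36 (771 bp) lay nearest to the TSS of RPS16, a ribosomal protein gene. A further ZFP36 peak, chosen after its motifs were seen, is chr19:39403549-39404176 (628 bp, score 1000) at -2.98 kb, which lay wholly in a TAF4 peak, did not overlap IgG and held 3 AP-1 motifs and an NF-kB motif. The stretches shown are chr6:30769724-30769754 and chr6:30769209-30769242 (minus strand), chr14:68786575-68786669 (minus strand), chr5:172782746-172782776 (minus strand), and chr19:39403603-39403668 and chr19:39403974-39404110 (plus strand), with AP-1 and NF-kB motifs in capitals.
IER3 upstream peak, AP-1: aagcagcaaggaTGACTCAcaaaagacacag
IER3 upstream peak, NF-kB: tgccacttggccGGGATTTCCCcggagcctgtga
ZFP36L1 downstream peak, AP-1 and NF-kB: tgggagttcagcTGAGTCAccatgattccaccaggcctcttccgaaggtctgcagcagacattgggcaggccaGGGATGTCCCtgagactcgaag
DUSP1 upstream peak, AP-1: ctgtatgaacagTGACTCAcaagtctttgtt
ZFP36 upstream peak, AP-1 pair: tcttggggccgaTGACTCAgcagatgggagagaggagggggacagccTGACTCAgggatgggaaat
ZFP36 upstream peak, AP-1 and NF-kB: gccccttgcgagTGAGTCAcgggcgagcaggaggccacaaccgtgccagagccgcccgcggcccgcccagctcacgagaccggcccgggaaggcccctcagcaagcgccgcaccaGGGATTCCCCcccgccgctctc

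Peaks were also found in the bodies and at the ends of several of the genes. Within the gene body but outside 1 kb of its own TSS, 5 genes had an SBNO1 peak (IER2, IER3, DUSP5, ZFP36 and ZFP36L1; 14.8% of all genes), 5 had a TAF4 peak (IER2, IER5, DUSP5, ZFP36 and ZFP36L1; 9.91%) and ZFP36 had an IgG peak (1.12%). Among genes no longer than DUSP5 these shares were 2.60%, 2.24% and 0.156%. Within 1 kb of the annotated gene end and over 1 kb from every TSS, a measure added after the positions were seen, SBNO1 peaks were present at EGR1, IER2, DUSP1, ZFP36 and ZFP36L1. This was 5 of 10 genes, compared with 1.27% of all genes, 1.48% of genes no longer than DUSP5 and 3.54% of those that also had an SBNO1 promoter peak. TAF4 peaks were present there at IER2, ZFP36 and ZFP36L1 (0.823% of all genes) and an IgG peak at ZFP36 (0.0660%). At IER2 and ZFP36 the SBNO1 peak on the gene end was counted in both measures. The SBNO1 body peak of ZFP36L1 lay between its promoters, that of DUSP5 in an intron and that of IER3 on the FLOT1 promoter.

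The peaks at the gene ends were not alike. At EGR1 the SBNO1 peak (chr5:138469597-138470541, 945 bp, score 611) began 294 bp beyond the gene end and overlapped neither TAF4 nor IgG. At IER2, SBNO1 peaks of 425 bp and 307 bp lay on and 577 bp beyond the end, of which the first overlapped a TAF4 peak of 616 bp. At ZFP36 the SBNO1 (597 bp), TAF4 (914 bp) and IgG (731 bp) peaks all lay on the end of the gene. At DUSP1 the SBNO1 peak (484 bp) was 929 bp beyond the end and overlapped neither. At ZFP36L1 the peak beyond the end was the one with AP-1 motifs and an IgG overlap described above. Of the 5 genes, EGR1, IER2 and DUSP1 thus had an end peak without IgG overlap. The scores of these peaks, 462 to 820, were all below the median of 869 of the SBNO1 list.

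For some peaks the class depended on the distance chosen. The SBNO1 promoter peak nearest to the limit was the third of IER2 (946 bp), and just beyond it lay SBNO1 peaks of ZFP36L1 (1035 bp), DUSP1 (1163 bp), DUSP5 (1242 bp), IER3 (1275 bp, on the FLOT1 promoter) and IER5 (1394 bp). None of these decided whether a gene had an SBNO1 promoter peak, since all of these genes had another one closer to a TSS.

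To place the 10 genes among their relatives, 51 further genes of the response and of its pathway were examined. Over all of them, 27 (52.9%) had an SBNO1 promoter peak, 36 (70.6%) a TAF4 and 3 (5.88%) an IgG promoter peak. Among all genes the shares were 25.7%, 31.9% and 1.41%. The median count of SBNO1 peaks within 50 kb of the 51 genes was 2, compared with 1 for all genes. Among 11 paralogs of the 10 genes, SBNO1 was found at DUSP4, DUSP6, DUSP10 and ZFP36L2 (36.4%), and TAF4 at 5 (45.5%). EGR2 and EGR4 had no promoter peak in either list, so that EGR1 was the EGR gene with promoter peaks. All 8 AP-1 and ATF genes, whose products bind the AP-1 motif, had both SBNO1 and TAF4 promoter peaks, and FOSL1 and ATF3 also had an IgG peak.

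Other immediate early genes were less uniform. Of 8 further transcription factor genes, all had a TAF4 promoter peak, while KLF2, KLF4, KLF6 and NR4A3 had none for SBNO1. Of 11 further genes with other functions, SBNO1 was found at BTG1, GADD45A, GADD45B, MCL1 and NFKBIA, TAF4 at 8 and IgG at MCL1. The genes for SRF and its cofactors had SBNO1 and TAF4 promoter peaks in 4 of 6 cases, with ELK3 and MRTFB lacking both. In the ERK pathway, 2 of 7 genes (MAP2K2 and RPS6KA1, 28.6%) had an SBNO1 promoter peak and 3 (42.9%) a TAF4 promoter peak. Of all genes, 25.7% and 31.9% had such a peak. With so few genes per list, these shares are descriptions and differences between them were not tested.

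**Figure D5:**
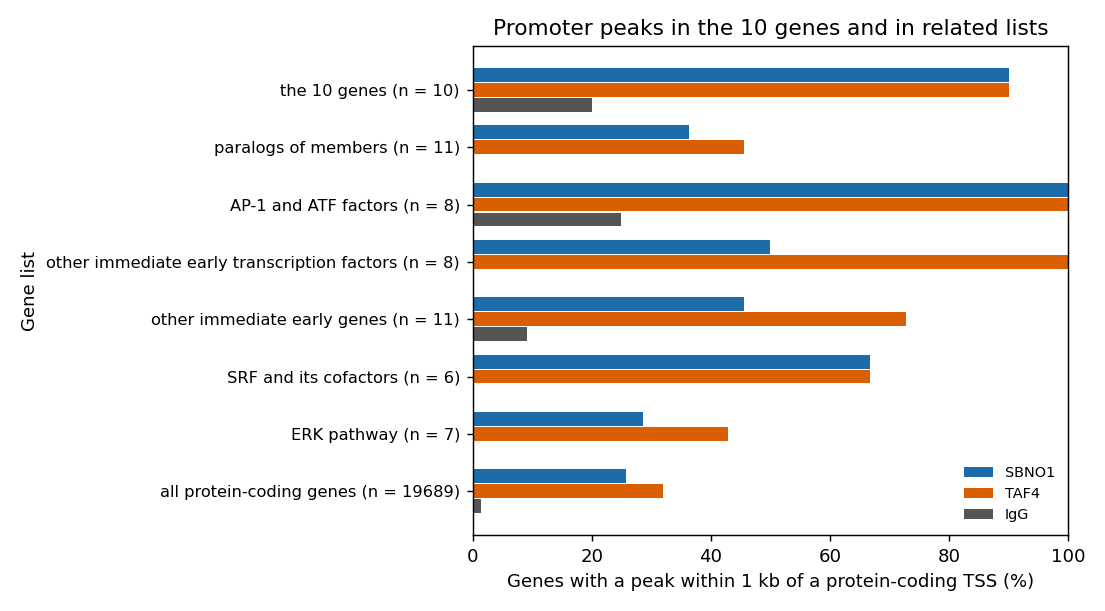
Share of genes with a promoter peak (in %, horizontal axis) of SBNO1, TAF4 and IgG in the 10 genes, in 6 related lists and in all protein-coding genes, with the number of genes in parentheses. The bars of the AP-1 and ATF genes reach 100% for SBNO1 and TAF4, and those of all genes reach 25.7% and 31.9%.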

How the data were processed

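Peak lists of SBNO1, TAF4 and IgG ChIP-seq from HuCCT1 cells were used, 1 library per antibody. Chromatin was cut with an enzymatic kit per the labels. Per the methods of the study, immunoprecipitates were pooled before single-end sequencing, and reads were trimmed with ktrim and aligned to GRCh38 with bowtie2. The methods name normR as peak caller, whereas the submitters' processing notes name Genrich 0.6.1 beside Bowtie2 2.5.4, so the caller and its threshold are uncertain. The use of the IgG library as control in the calls is not given in the sources used here. The deposited score is the authors' value and was used only to rank peaks within a list.

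TSS were the 78567 start sites of protein-coding transcripts of 19689 genes in GENCODE 44. Peaks were assigned to every gene with a TSS within 1 kb, to gene bodies and to windows of 50 kb. Peaks overlapped when they shared 1 bp or more. The 9 motifs were matched exactly on both strands, CArG and NF-kB boxes by their degenerate consensus. Sequences were read from GRCh38. The genes, lists and motifs were chosen with earlier results of these data known. All 10 genes are named, with the widest SBNO1 peak over 1 kb from every TSS at each. In related lists, the smaller of the classes with and without SBNO1 and any gene with IgG are named, and 1 gene of the ERK pathway list is not reported here. Distance and motif functions were tested on simulated data (Python 3.11.15).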

Additional observations from a re-analysis of the deposited data

How the results depend on the processing

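SBNO1 and TAF4 promoter peaks stayed at 7 to 9 of the 10 genes, except when low scores were removed. The settings were other distances, other TSS sets, assignment to the nearest TSS and removal of peaks that overlap IgG. Shared peaks stayed at 6 to 9. Among all genes the counts were 4278 to 5585 for SBNO1, 5361 to 6580 for TAF4 and 3811 to 4690 for shared peaks. With scores at or above the list median, SBNO1 promoter peaks and those shared with TAF4 fell to 3 genes (2589 and 1762 of all genes). At the cap they fell to 2 (1800 and 1179 of all genes). IgG promoter peaks fell to 0 under both (69 and 23 of all genes). Without a score filter the counts over all 19689 genes were 5057 for SBNO1, 4392 for shared peaks and 277 for IgG. Within 3 kb of a TSS, IgG peaks were present at 4 genes (323 of all genes). The median number of peaks per gene within 50 kb changed to 3 for SBNO1, 4 for TAF4 and 0 for IgG with scores at or above the median. Within 10 kb it was 3.5 for TAF4 and 0 for IgG, within 100 kb it was 1.5 for IgG, and without peaks near any TSS it was 4 for TAF4. The matching median over all genes was 0 for each of these values. In the main setting it was 1 for SBNO1 and TAF4 and 0 for IgG. Alternatives for peaks in gene bodies and at gene ends were added after seeing the data. At or above the median score, SBNO1 body and end peaks were present at no gene (1787 and 90 of all genes). Without peaks that overlap IgG, they were present at 3 genes each (2855 and 236 of all genes). For TAF4, body peaks fell from 5 genes to 1 and end peaks from 3 to 0 at or above the median score (1017 and 51 of all genes). Without peaks that overlap IgG, they fell to 4 and 1 (1881 and 149 of all genes). In longer promoter windows, 6 instead of 3 of the genes held an ETS motif, compared with 30.2% instead of 22.7% of all genes. The cause of these changes was not tested. Removing IgG peaks from the IgG list gives no value. No paired analysis was possible because there was a single library for every antibody, without replicate numbers to pair. Depth and replicate error are unknown, so presence and absence of a peak cannot be given an error.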
